A study of Mus musculus with 22 samples.

Results

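The genes described here are the voltage-gated potassium, sodium and calcium channels of the mouse heart and the channel families named with them. They were chosen as protein-coding genes of the GENCODE mouse annotation whose symbols begin with Kcn or Cacn, or are those of the sodium channel (Scn) and pacemaker channel (Hcn) families. The annotation held 138 such genes, all with a row in the tables, among 49671 genes measured in the series. Of these, 64 had a mean of at least 10 normalized counts in the left ventricle (LV) or the right ventricle (RV) and are described. The rule also takes in inward rectifiers, two-pore channels and calcium-activated channels, which voltage does not open, so the set is broader than its name. RNA was sequenced in bulk from the LV and RV of CD1 mice, an outbred strain. The nPAB group had neonatal pulmonary artery banding on postnatal day 1 with a 30G needle, and the Sham group had a sham operation on that day. Hearts were collected 7 days after surgery, and both ventricles of 6 nPAB and 5 Sham mice gave 1 library each. The labels give CD1 as the genotype of every mouse and name no allele or drug.

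Ion channels of heart muscle set the shape of the action potential. Sodium channels carry the upstroke, L-type calcium channels the plateau and the trigger for contraction, and several potassium channels repolarization. Inward rectifiers hold the resting potential, and pacemaker and T-type calcium channels contribute to spontaneous firing in the conduction system and in the young heart. A band around the pulmonary artery makes the RV pump against a higher pressure, so the RV carries the load directly, while the LV is the other ventricle of the same heart.

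Library depth was 7109050 to 11334423 reads. The cardiomyocyte markers were Myh6, Tnnt2, Tnni3, Actn2, Ryr2 and Pln. They summed to 257424 to 309436 normalized counts in RV Sham and 201765 to 285144 in RV nPAB. In the LV they summed to 282043 to 306914 in Sham and 231476 to 373462 in nPAB. In the RV, Actn2 rose and Tnni3, Ryr2 and Pln fell. The 8 atrial markers Myl7, Myl4, Sln, Bmp10, Nr2f1, Nr2f2, Stard10 and Dhrs9 summed to 459 to 2773 normalized counts in RV Sham and to 998 to 10051 in RV nPAB, highest in nPAB mice 6, 11 and 8 (10051, 6819 and 5021), and none was at 0 in every RV library. Of the 7 tested there, 1 passed, Nr2f1, which fell, and the mean of Myl7 was 954 normalized counts in RV Sham and 2593 in RV nPAB (adjusted p = 0.316). Of the markers of other cells tested in the RV, 1 of 5 for fibroblasts fell (Pdgfra, -0.45), and none of 5 for endothelium or of 4 for leukocytes passed. The fibroblast markers summed to 26767 to 34958 normalized counts in RV Sham and 17919 to 29157 in RV nPAB. The sums for endothelium were 8651 to 9940 and 8437 to 9921, and those for leukocytes 277 to 674 and 257 to 568. By Xist and a Y-linked gene, the LV and RV libraries of nPAB mice 6 and 7 were of different sex in 2 of the 11 labelled pairs, so counts are also given without these mice.

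In the banded RV, 27 of the 63 channel genes tested passed (adjusted p under 0.05), 8 higher and 19 lower than in Sham. Over all 13660 genes tested in the RV, 22.0% passed, 11.1% higher and 10.8% lower. The median log2 fold change of the 63 channel genes was -0.42, against 0.00 over all genes, and 43 of the 63 lay below 0. In 15 of the 63 (23.8%), the nPAB libraries were all above or all below every Sham library, against 12.9% of all genes. All 15 also passed, and 12.2% of all genes met both conditions. The falls ran from Scn10a (-2.37) to Kcng2 (-0.28) and the rises from Kcnk3 (0.57) to Kcne4 (2.17). Of the 3 genes named as markers of the set, Kcnd2 and Cacna1g fell and Kcnk3 rose. In bulk RNA, fewer cells of a type and less RNA per cell cannot be told apart. Without nPAB mice 6, 8 and 11, whose RV libraries had the highest atrial marker sums, a choice made after seeing the data, 16 channel genes passed, 15 of them among the 27, and of all genes 12.8% passed in place of 22.0%. Without nPAB mice 6 and 7, 23 passed, 22 of them among the 27, and 20.4% of all genes did. Hcn4, Kcna5, Kcnab3, Kcng2 and Scn3b did not pass then. Leaving out mice also makes the nPAB group smaller, so a lost call cannot be tied to atrial RNA. The part of atrial RNA in these results was not tested.

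**Figure D1:**
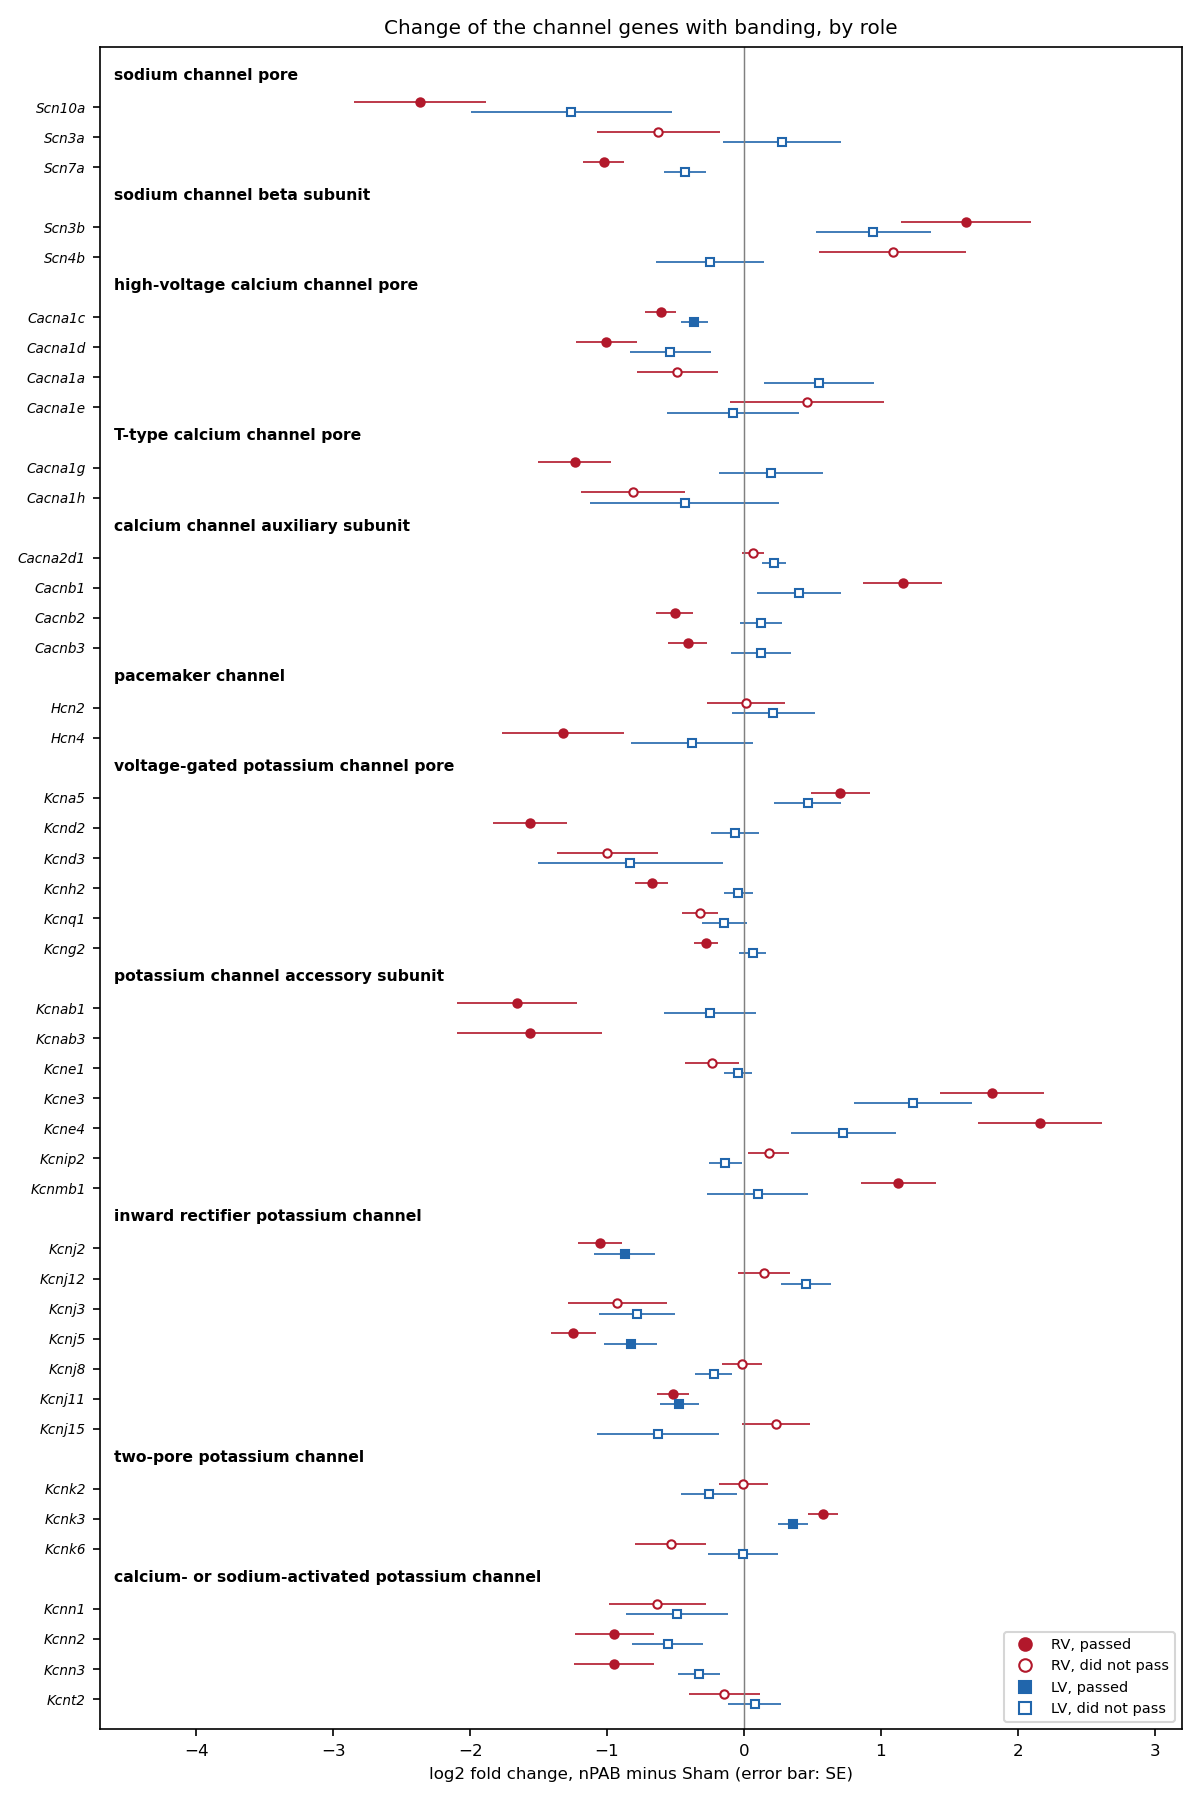
Change with banding of the channel genes named in the text, grouped by role, in the RV (red circles) and the LV (blue squares). The x axis is the log2 fold change, nPAB minus Sham, with its SE, and filled symbols passed the test. In the RV the symbols run from Scn10a at -2.37 to Kcne4 at 2.17, and in the LV 4 filled symbols lie below 0 and 1 above.

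Among the sodium channel pores, 2 of 6 fell in the RV and none rose. Over all genes tested there 10.8% fell and 11.1% rose, the shares to set beside each RV count by role below. Scn10a, a sodium channel best known from sensory neurons and also linked to cardiac conduction, had the largest fall of the set. Its Sham values were 36.1, 49.3, 38.1, 37.9 and 47.0 normalized counts, and its nPAB values ran from 1.86 through a median of 6.09 to 20.4. All nPAB libraries lay below all Sham libraries (log2 fold change -2.37 ± 0.48 SE, adjusted p = 0.00175). Scn7a, which encodes a channel that senses sodium concentration, measured 699, 765, 610, 645 and 507 normalized counts in Sham and 246 to 462 in nPAB, with a median of 290. These groups did not overlap either (-1.03 ± 0.15, adjusted p = 1.02e-04). The markers of Schwann cells and neurons, other cells in which these 2 genes are known, summed to 32.1 to 75.4 normalized counts in RV Sham and 38.7 to 59.6 in RV nPAB. Only 2 of these 8 markers could be tested, of which 1 fell, the direction of Scn10a and Scn7a, and 1 rose, with a median of 0.35 over the 2. Of the 8, 1 was at 0 in every RV library. The part of Schwann cells and neurons in the fall of Scn10a and Scn7a was not tested.

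Scn3b, a beta subunit that binds the sodium channel pore and tunes its gating, rose in the RV. It was at 25.5, 6.58, 5.56, 33.1 and 4.70 normalized counts in Sham and 23.1 to 82.3 in nPAB, median 33.3, with overlap of the groups (1.62 ± 0.48, adjusted p = 0.0203). Scn4b, another beta subunit, was higher on average in nPAB, at 32.0 ± 18.0 against 13.2 ± 7.73, and did not pass (adjusted p = 0.164), although it did without nPAB mouse 6 (adjusted p = 0.022, range over the alternatives 0.022 to 0.317) and without nPAB mice 6 and 7. The call for Scn3b was lost without any 1 of Sham mice 10, 11 and 13 and nPAB mouse 6 (adjusted p 0.0504 to 0.0584), and over all alternatives its adjusted p ran from 0.00577 to 0.119. Scn3b did not pass without nPAB mice 6, 8 and 11 (adjusted p = 0.119).

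Of the pores of the high-voltage calcium channels, 2 of 4 fell in the RV. Cacna1c, the pore of the ventricular L-type channel, had Sham values of 2585, 2710, 2209, 2998 and 2734 normalized counts. In nPAB it ran from 1277 to 2125 with a median of 1787, below every Sham library (-0.61 ± 0.12, adjusted p = 0.0012). Cacna1d, an L-type pore best known from pacemaker and atrial cells, stood at 121, 69.1, 95.3, 78.8 and 116 in Sham and at 30.7 to 59.2 in nPAB, median 47.6. It had no overlap of the groups (-1.01 ± 0.22, adjusted p = 0.00328). The neuronal pores Cacna1a (-0.49) and Cacna1e (0.46) did not pass.

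Cacna1g, the pore of the main T-type calcium channel of the heart (chromosome 11, 94408391 to 94474198, minus strand), fell in the RV. It measured 258, 418, 405, 420 and 406 normalized counts in Sham and 107 to 340 in nPAB, with a median of 138. Sham mouse 9 and nPAB mouse 7 made the groups overlap, and the other libraries were apart (-1.24 ± 0.27, adjusted p = 0.00457). Without nPAB mice 6, 8 and 11 it was at -0.85 and did not pass (adjusted p = 0.0666, the highest over its alternatives, of which 2.31e-05 was the lowest). Cacna1h, the other T-type pore measured, was at 25.3 ± 10.0 in Sham and 13.6 ± 5.51 in nPAB and did not pass (-0.81 ± 0.38, adjusted p = 0.138).

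Among the auxiliary calcium channel subunits, which bring the pore to the membrane and adjust its opening, 2 of 8 fell and 1 rose in the RV. Cacnb2, the main beta subunit of heart muscle, was at 886, 964, 1181, 1004 and 1128 normalized counts in Sham and 516 to 1045 in nPAB, median 717 (-0.51 ± 0.14, adjusted p = 0.0128). The overlap came from nPAB mouse 7, at 1045. Cacnb1, the beta subunit best known from skeletal muscle, rose from 24.4, 29.6, 23.8, 20.4 and 29.3 in Sham to 33.6 to 104 in nPAB, median 60.1. The groups did not overlap (1.16 ± 0.29, adjusted p = 0.00763). Of the 6 skeletal muscle markers, which include the skeletal calcium channel genes Cacna1s and Cacng1, 1 was tested in the RV, Myh8, and it rose (1.82). Those markers summed to 10.6 to 23.4 normalized counts in RV Sham and 23.3 to 45.0 in RV nPAB, 1 of them at 0 in every library, and their part in the rise of Cacnb1 was not tested. Cacnb3 fell by 0.41 on the log2 scale with no overlap (159 ± 9.22 to 120 ± 15.5 normalized counts, adjusted p = 0.042). Its call was lost without any 1 of the 5 Sham mice or of nPAB mice 5, 6, 8 and 11 (adjusted p 0.0532 to 0.0925, range over all alternatives 0.0196 to 0.181). Without nPAB mice 6, 8 and 11, Cacnb1 was at 0.83 (adjusted p = 0.128) and Cacnb2 at -0.30 (adjusted p = 0.142), and neither passed. Cacna2d1, the alpha2delta subunit of the cardiac channel, was at 2765 ± 219 in Sham and 2898 ± 277 in nPAB and did not pass (adjusted p = 0.602).

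Of the pacemaker channels, Hcn4, the main form of the sinus node, fell in the RV and Hcn2 did not pass. Hcn4 was low in these ventricles, at 24.4, 14.3, 13.5, 20.4 and 17.6 normalized counts in Sham and 2.78 to 14.6 in nPAB, median 6.69, and the groups overlapped through nPAB mouse 11 (-1.32 ± 0.45, adjusted p = 0.0408). Its call was lost without any 1 of the 5 Sham mice or of nPAB mice 5, 7 and 8 (adjusted p 0.0512 to 0.10, range over all alternatives 0.0177 to 0.10). The 7 conduction markers, of which Hcn4 is one, summed to 335 to 464 normalized counts in RV Sham and 311 to 512 in RV nPAB, and no other member of that list passed. Hcn2 was at 62.3 ± 26.7 and 61.6 ± 17.5 (0.02 ± 0.28, adjusted p = 0.975).

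Of the voltage-gated potassium channel pores, 4 of 15 fell and 1 rose in the RV. Kcnd2, which carries the fast transient outward current of the rodent ventricle (chromosome 6, 21215503 to 21729805, plus strand), had the largest fall among these pores. It stood at 182, 223, 184, 231 and 246 normalized counts in Sham and at 36.4 to 137 in nPAB, with a median of 78.2. Every nPAB library lay below every Sham library (-1.56 ± 0.27, adjusted p = 6.59e-04). Kcnd3, which forms channels together with Kcnd2, was at 36.0 ± 15.2 in Sham and 18.0 ± 8.87 in nPAB and did not pass (-0.997 ± 0.37, adjusted p = 0.0587). Without nPAB mouse 7 it did (adjusted p = 0.0237, range over the alternatives 0.0237 to 0.315), as it did with DESeq2. Kcnh2, the pore of the rapid delayed rectifier, fell from 880, 719, 802, 747 and 734 in Sham to 355 to 626 in nPAB, median 505, with no overlap (-0.67 ± 0.12, adjusted p = 6.78e-04). Kcng2, a subunit that forms no channel alone and modifies other voltage-gated pores, fell by 0.28 on the log2 scale (adjusted p = 0.0271).

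Kcna5, the pore of the ultrarapid delayed rectifier, was the only one of the 15 voltage-gated pores to rise. It measured 125, 75.6, 77.8, 120 and 64.6 normalized counts in RV Sham and 93.7 to 195 in RV nPAB, median 158, and the groups overlapped (0.71 ± 0.21, adjusted p = 0.0242). Kcnq1, the pore of the slow delayed rectifier, was at 315 ± 40.3 and 253 ± 40.4 (-0.32 ± 0.13, adjusted p = 0.0893) and did not pass. The call for Kcna5 was lost without any 1 of Sham mice 10, 11 and 13 and nPAB mouse 7 (adjusted p 0.0515 to 0.0705, range over all alternatives 0.00767 to 0.142). That for Kcng2 was lost without any 1 of Sham mice 11, 12 and 13 and nPAB mouse 6 (adjusted p 0.0535 to 0.0598, range 0.0145 to 0.235). Exons of Kcnq1 and Kcng2 overlap transcripts of the opposite strand that were themselves measured, over 2.96% and 9.10% of their exon length. Whether counting used strand is not given in the sources used here, so reads of the partners cannot be told apart there.

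The accessory subunits of potassium channels changed in both directions in the RV, with 3 of 9 higher and 2 lower. Kcne4, a small membrane subunit that inhibits several voltage-gated channels, had the largest rise of all channel genes. It was at 22.3, 20.8, 56.4, 5.84 and 9.39 normalized counts in Sham and 60.1 to 176 in nPAB, median 70.2. The groups did not overlap, with nPAB mouse 6 far above the other 5 (2.17 ± 0.45, adjusted p = 0.00286). Kcne3, of the same subunit family, was at 7.43, 15.3, 7.14, 11.7 and 35.2 in Sham and 28.9 to 82.3 in nPAB, median 46.2, overlapping through Sham mouse 13 (1.81 ± 0.38, adjusted p = 0.00209). Kcnmb1, a subunit of the large calcium-activated channel known from smooth muscle, rose from 15.9, 29.6, 25.4, 12.6 and 20.0 to 36.0 to 54.0, median 45.7, without overlap (1.13 ± 0.27, adjusted p = 0.00617). None of the 8 smooth muscle and pericyte markers rose in the RV, and 1 fell (Abcc9, at -0.84). Their median log2 fold change was -0.01. Their sum, which includes the falling Abcc9, was 32432 to 38386 in RV Sham and 26773 to 32322 in RV nPAB. In that list, Abcc9 and Kcnj8 also encode parts of the ATP-sensitive channel. The part of smooth muscle cells and pericytes in the rise of Kcnmb1 was not tested.

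The cytosolic beta subunits bind the inner side of voltage-gated pores, and both that were tested in the RV fell there. The other one, Kcnab2, had a mean of 7.31 normalized counts and was not tested. Kcnab1 was at 34.0, 24.1, 24.6, 39.9 and 16.4 normalized counts in Sham and 2.04 to 14.7 in nPAB, median 9.19, with no overlap (-1.66 ± 0.44, adjusted p = 0.0108). Kcnab3 was at 8.50, 37.3, 33.3, 6.81 and 15.3 in Sham and 1.85 to 8.15 in nPAB, median 5.39, with overlap (-1.56 ± 0.53, adjusted p = 0.0409). The call for Kcnab3 was lost without any 1 of Sham mouse 13 and nPAB mice 6, 8 and 10 (adjusted p 0.0549 to 0.0755, range over all alternatives 0.00523 to 0.161). Kcne1, the partner of Kcnq1, was at 4656 ± 717 and 4081 ± 1272 and did not pass (adjusted p = 0.447). Neither did Kcnip2, the calcium-binding subunit that Kcnd2 and Kcnd3 channels need to reach the membrane, at 605 ± 178 in Sham and 671 ± 94.1 in nPAB (0.18 ± 0.15, adjusted p = 0.442).

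**Figure D2:**
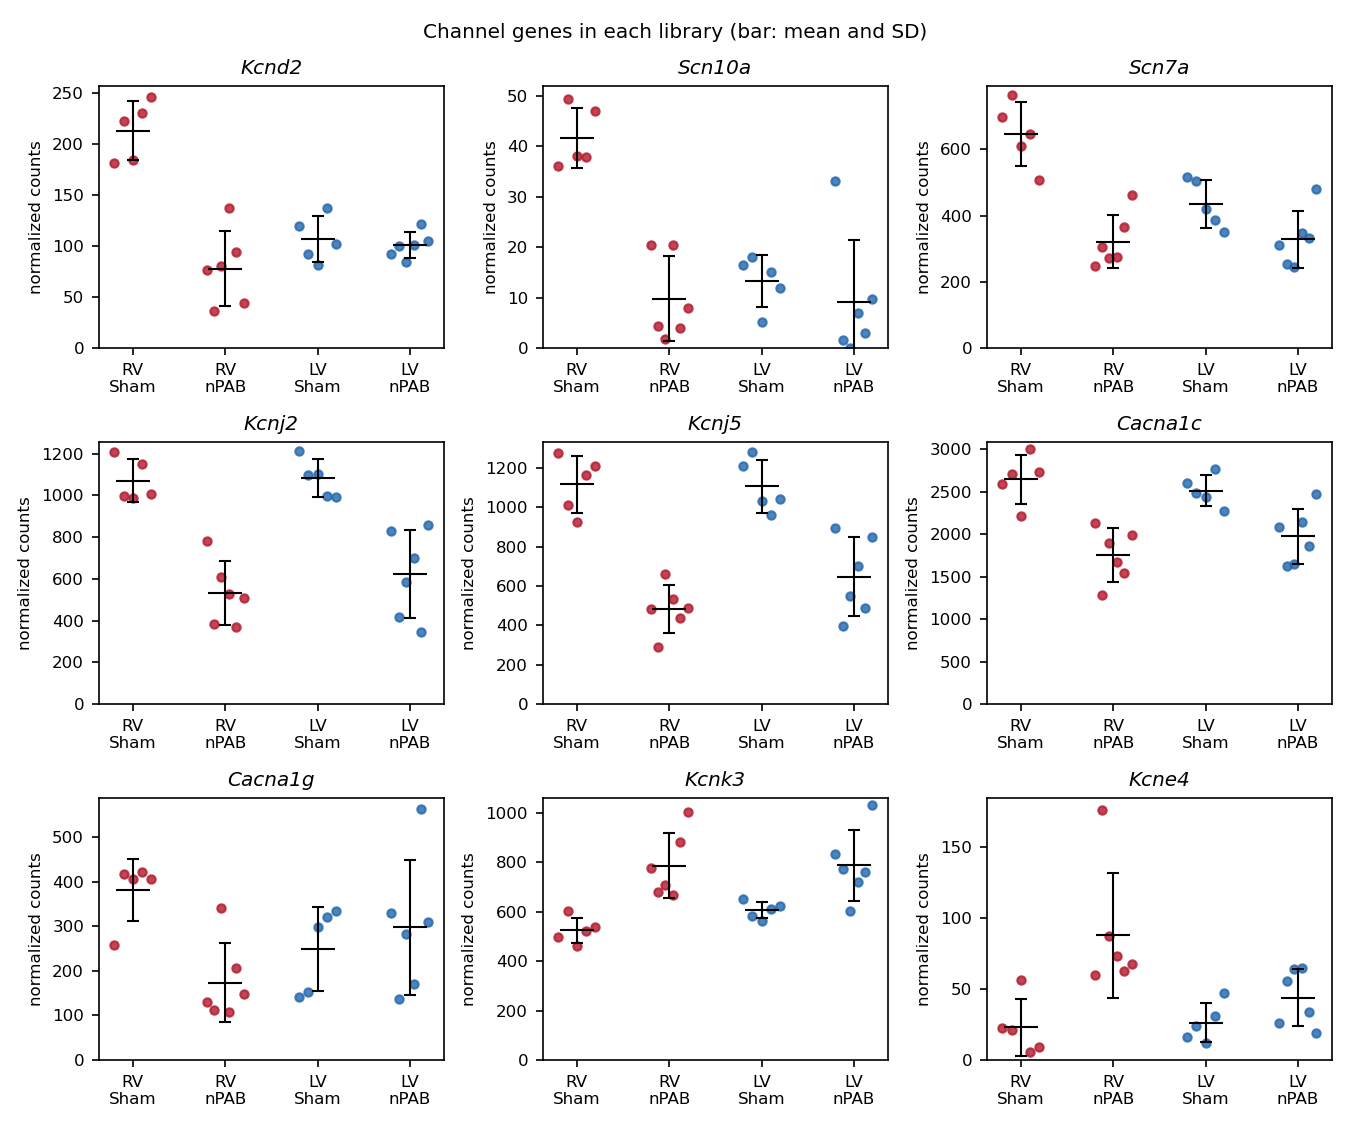
Normalized counts of 9 channel genes in each library, with RV libraries in red and LV libraries in blue, 5 Sham and 6 nPAB in each. Points are libraries and bars give the mean and SD. Kcnd2 stood at 36.4 to 137 in RV nPAB against 182 to 246 in RV Sham, while its LV groups overlapped.

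The ratio of a pair of channel genes within a library cancels the scaling of the table, apart from a pseudocount of 1, and 6 such ratios were compared in each ventricle, 12 tests in all. Kcnip2 to Kcnd2 was the only ratio that passed. In the RV its log2 ratio was 1.67, 2.02, 1.24, 1.29 and 1.11 in the Sham mice and 2.44 to 3.91 in the nPAB mice, with no overlap. The means were 1.47 ± 0.37 and 3.21 ± 0.51, a difference of 1.74. By construction this difference is the log2 fold change of Kcnip2 in the RV (0.18) less that of Kcnd2 (-1.56). It therefore restates the fall of Kcnd2 in the same libraries and is no separate evidence. The exact two-sided permutation test over libraries gave p = 0.00216, the smallest it can give with these group sizes, and 0.026 after Benjamini-Hochberg adjustment over the 12. In the LV the same ratio was 2.78 ± 0.41 in Sham and 2.71 ± 0.13 in nPAB (exact permutation p = 0.695). The difference in the RV stayed between 1.60 and 1.90 when any 1 mouse was left out, but the adjusted p rose to 0.0571 or 0.0952 in each case other than Sham mouse 10. These are the lowest values a lone ratio can reach with 10 libraries.

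**Figure D3:**
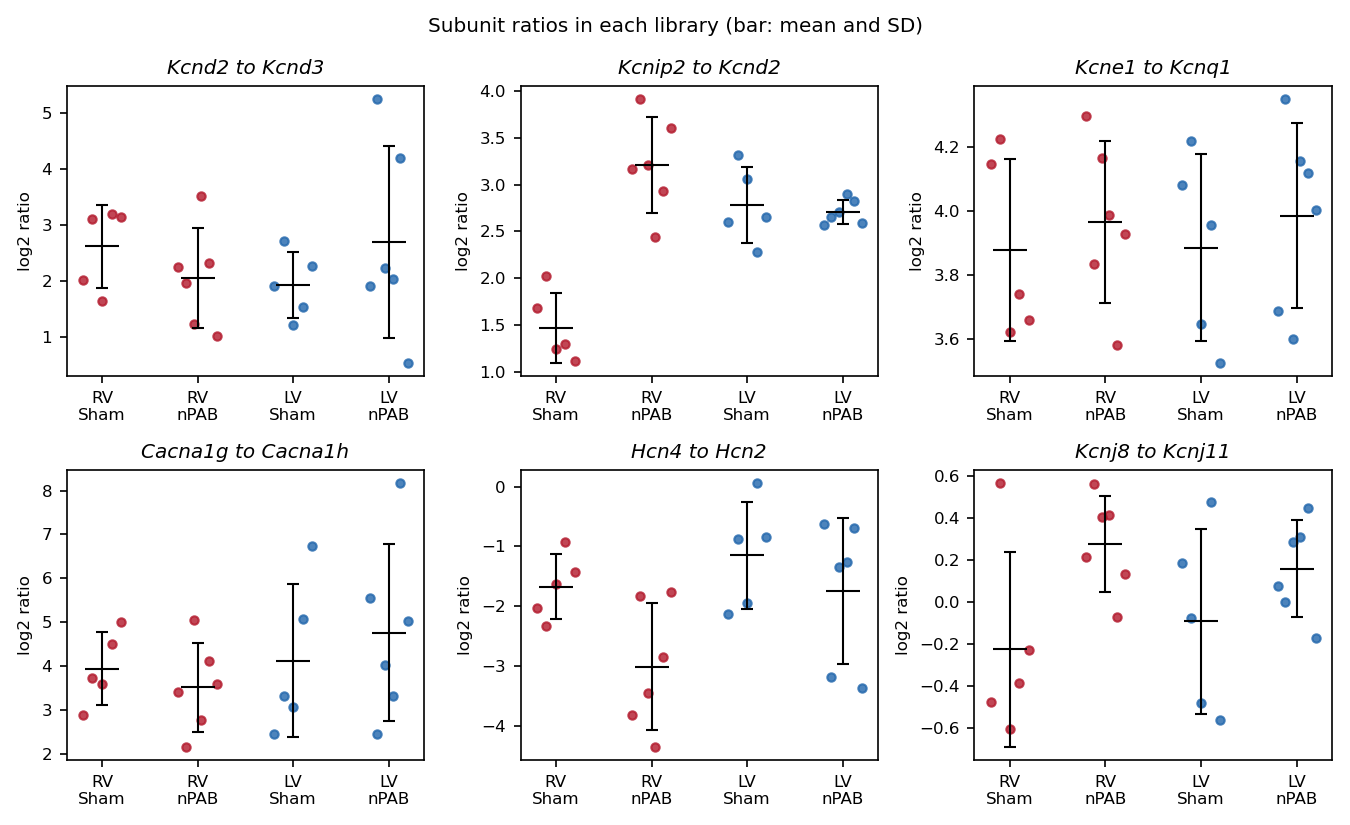
Log2 ratio of 6 pairs of channel genes in each library, RV in red and LV in blue, with mean and SD. The RV nPAB libraries stand at 2.44 to 3.91 for Kcnip2 to Kcnd2, above the RV Sham libraries at 1.11 to 2.02, and the groups overlap in the other panels.

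For the other ratios no adjusted p passed. Hcn4 to Hcn2 was lower in RV nPAB, at -3.01 ± 1.06 against -1.67 ± 0.54 (exact permutation p = 0.039, adjusted 0.199). Kcnj8 to Kcnj11, the pores of the vascular and the muscle form of the ATP-sensitive channel, was higher in RV nPAB, at 0.27 ± 0.23 against -0.23 ± 0.46 (exact permutation p = 0.0498, adjusted 0.199), and passed only without Sham mouse 10 (adjusted p = 0.0286). Kcne1 to Kcnq1 was 3.88 ± 0.29 and 3.97 ± 0.25. Kcnd2 to Kcnd3 (difference -0.57) and Cacna1g to Cacna1h (difference -0.43) overlapped widely in the RV.

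Of the inward rectifiers, 3 of 7 fell in the RV and the same 3 fell in the LV, against 10.8% and 4.55% of all genes tested. Kcnj2, the main pore of the current that holds the resting potential of the ventricle, measured 1208, 995, 986, 1153 and 1007 normalized counts in RV Sham and 369 to 782 in RV nPAB, median 519. The groups were apart (-1.05 ± 0.16, adjusted p = 2.87e-04). Kcnj5, a pore of the channel that acetylcholine opens, measured 1275, 1012, 926, 1162 and 1211 in RV Sham and 289 to 659 in RV nPAB, median 485. It was the gene of the set with the smallest p in the RV (-1.25 ± 0.16, adjusted p = 8.3e-05). Kcnj11, the pore of the ATP-sensitive channel of heart muscle, was at 465, 324, 409, 450 and 423 in RV Sham and 258 to 333 in RV nPAB, median 276, where Sham mouse 10 made the groups overlap (-0.52 ± 0.12, adjusted p = 0.00351).

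The other inward rectifiers did not pass. Kcnj12, which joins Kcnj2 in the same current, was at 116 ± 38.1 and 125 ± 14.4 normalized counts in the RV (0.15 ± 0.19, adjusted p = 0.633). Kcnj3, the usual partner of Kcnj5, was at 172 ± 66.1 in Sham and 90.3 ± 37.6 in nPAB (-0.92 ± 0.36, adjusted p = 0.0861). It passed without Sham mouse 10 (adjusted p = 0.0106), without nPAB mice 6, 8 and 11 (0.0297) and with edgeR and DESeq2, within a range of 0.0106 to 0.177 over its alternatives. Kcnj8 was at 357 ± 77.1 and 351 ± 54.8 (-0.02 ± 0.14, adjusted p = 0.955). Kcnj15 was at 0.24 (adjusted p = 0.546).

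In the LV, 5 of the 60 channel genes tested passed, 4 lower and 1 higher, against 9.31% of the 13528 genes tested there, 4.55% lower and 4.76% higher. The median log2 fold change of the 60 was -0.15, against -0.01 over all genes. All 5 also passed in the RV, in the same direction. They were Kcnj2, Kcnj5, Kcnj11, Cacna1c and Kcnk3, and Kcnj2 and Kcnj5 were the 2 of 60 without overlap of the groups, against 6.53% of all genes, or 5.37% that also passed. Kcnj2 measured 1212, 1099, 1104, 997 and 994 normalized counts in LV Sham and 346 to 857 in LV nPAB, median 643 (-0.87 ± 0.22, adjusted p = 0.0301). Kcnj5 measured 1212, 1282, 1033, 961 and 1043 in LV Sham and 399 to 894 in LV nPAB, median 625 (-0.83 ± 0.19, adjusted p = 0.0184). Both fell in the ventricle that the band does not load directly. Cacna1c was at 2512 ± 183 and 1972 ± 325 with overlap (-0.36 ± 0.10, adjusted p = 0.0264), and Kcnj11 at 412 ± 53.0 and 302 ± 73.3 with overlap (-0.47 ± 0.15, adjusted p = 0.0485).

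The LV calls other than Kcnj5 were each lost when any 1 of several mice was left out. The call was lost for Kcnj2 (adjusted p 0.0525 to 0.0708) and for Cacna1c (0.0504 to 0.0798) without any 1 of Sham mice 9, 10, 11 and 12 and nPAB mice 6 and 7. Kcnj11 lost it without any 1 of Sham mice 9, 10, 11 and 13 and nPAB mice 6, 7, 8 and 10 (0.0766 to 0.11). Kcnk3 kept it only without nPAB mouse 7 among the single mice (0.0513 to 0.099 without each other one). Over all alternatives the adjusted p reached 0.114, 0.136, 0.176 and 0.111 for these 4 genes, with the lowest at 5.92e-04, 0.00362, 0.00642 and 0.0156, and for Kcnj5 it ran from 3.27e-04 to 0.0463. The highest values of Kcnj2, Cacna1c and Kcnj11 were those without both nPAB mice 6 and 7, where 2 of the 5 genes, Kcnj5 and Kcnk3, and 4.93% of all genes passed.

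Promoters from RefSeq on GRCm38.p6 were found for 45 of the 64 channel genes. Those of Kcnj2, Kcnj5 and Cacna1c are printed because these genes fell in both ventricles, and that of Kcnd2 because it is a gene named as a marker of the set. Each runs from 250 bases before to 50 bases after the start, 5′ to 3′ on the gene's strand, and where a gene had several entries the one nearest the annotated gene start was taken. Capitals mark a motif match, an E-box in Kcnj2 and the half-site of the glucocorticoid receptor, read on the other strand, in Kcnj5.
Kcnj2: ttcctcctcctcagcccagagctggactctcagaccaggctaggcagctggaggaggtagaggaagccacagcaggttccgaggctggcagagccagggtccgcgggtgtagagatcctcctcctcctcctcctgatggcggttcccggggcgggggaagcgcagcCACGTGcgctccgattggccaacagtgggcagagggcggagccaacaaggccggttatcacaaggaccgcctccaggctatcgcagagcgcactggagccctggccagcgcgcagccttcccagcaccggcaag
Kcnj5: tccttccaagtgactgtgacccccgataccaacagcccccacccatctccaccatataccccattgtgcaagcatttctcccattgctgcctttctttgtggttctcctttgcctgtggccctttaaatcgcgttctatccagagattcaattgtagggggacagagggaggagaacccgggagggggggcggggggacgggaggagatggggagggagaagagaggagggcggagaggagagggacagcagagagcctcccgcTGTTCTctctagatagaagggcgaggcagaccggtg
Cacna1c: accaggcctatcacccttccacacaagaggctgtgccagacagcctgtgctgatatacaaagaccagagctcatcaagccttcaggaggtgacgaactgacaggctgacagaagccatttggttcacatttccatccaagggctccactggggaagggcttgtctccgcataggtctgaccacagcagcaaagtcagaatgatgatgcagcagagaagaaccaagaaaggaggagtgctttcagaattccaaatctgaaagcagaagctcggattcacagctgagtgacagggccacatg
Kcnd2: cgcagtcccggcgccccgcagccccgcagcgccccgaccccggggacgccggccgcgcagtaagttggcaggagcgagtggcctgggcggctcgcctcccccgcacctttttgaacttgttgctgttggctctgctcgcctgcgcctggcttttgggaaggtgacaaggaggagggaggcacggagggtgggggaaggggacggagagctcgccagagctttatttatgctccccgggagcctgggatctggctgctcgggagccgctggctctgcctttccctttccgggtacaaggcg
They lie at chr11:111065914-111066213 (plus strand), chr9:32344295-32344594 (minus), chr6:119196360-119196659 (minus) and chr6:21215096-21215395 (plus). The promoters of Kcnj2 and Kcnd2 were 66.7% and 68.7% G and C with 18 and 26 CG pairs, that of Kcnj5 58.3% with 10, and that of Cacna1c 51.3% with 3. The medians over the 45 channel promoters were 62.3% and 11 CG pairs, and over all 32544 distinct promoters 53.0% and 7. The 45 hold a single promoter for each gene and the 32544 several for some genes, so the sets are unlike, also for the motifs below. For Cacna1e, Kcnj12 and Kcnh2 the entry taken lay 158581, 43240 and 22013 bases from the annotated gene start. The 13 genes among the 45 that fell in the RV had a median of 58.3%, the 5 that rose 52.7% and the 26 that did not pass 62.8%.

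Both strands of these promoters were searched for 5 short motifs. The E-box CACGTG, which reads the same on both strands, was in 6.67% of the 45 channel promoters (Kcnab1, Kcne4 and Kcnj2) and in 7.17% of all promoters. The T-box half-site AGGTGT was in 11.1% and 13.8%, among them Hcn4 and Kcnj3. The glucocorticoid receptor half-site AGAACA was in 11.1% and 18.9%, among them Kcnj5, Cacna1d and Kcnab1. The NFAT core GGAAAA (Kcna5 and Kcne4) and the GATA site AGATAA (Scn7a and Kcnj15) were each in 4.44% of the channel promoters, against 23.3% and 11.2% of all. No motif matched in the windows of Cacna1c and Kcnd2. A match says only that the letters are there.

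Of the 3 two-pore potassium channels, 1 rose in the RV. Kcnk3, an acid-sensitive background channel (chromosome 5, 30588170 to 30625271, plus strand), was at 498, 603, 463, 521 and 538 normalized counts in RV Sham and 670 to 1003 in RV nPAB, median 744. Every RV nPAB library lay above every RV Sham library (0.57 ± 0.11, adjusted p = 0.00107). In the LV it was at 651, 585, 564, 611 and 622 in Sham and 603 to 1033 in nPAB, median 768, where nPAB mouse 7 made the groups overlap (0.36 ± 0.11, adjusted p = 0.0436). Exons of Kcnk3 overlap a transcript of the opposite strand over 5.76% of their length, and that transcript had a mean of 62.8 normalized counts in the RV. Kcnk2, a stretch-sensitive background channel, was at 105 ± 18.9 and 104 ± 17.1 in the RV (adjusted p = 0.989), and Kcnk6 at 106 ± 58.0 and 66.9 ± 12.3 (adjusted p = 0.148).

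Of the 4 calcium- or sodium-activated potassium channels, 2 fell in the RV. Kcnn2, a small-conductance channel of heart muscle, was at 79.7, 77.8, 114, 73.9 and 69.3 normalized counts in Sham and 22.5 to 93.1 in nPAB, median 40.0, with nPAB mouse 7 within the Sham range (-0.95 ± 0.29, adjusted p = 0.0244). Kcnn3, of the same family, was at 315, 366, 260, 391 and 277 in Sham and 83.5 to 337 in nPAB, median 161, again with nPAB mouse 7 as the highest (-0.95 ± 0.29, adjusted p = 0.0349). The call for Kcnn2 was lost without any 1 of Sham mouse 11 and nPAB mice 6 and 10 (adjusted p 0.0505 to 0.0697, range over all alternatives 0.00243 to 0.218). That for Kcnn3 was lost without any 1 of Sham mice 9, 10 and 12 and nPAB mice 6, 10 and 11 (0.0637 to 0.0819, range 0.0017 to 0.138). Kcnn1 (-0.63) and Kcnt2 (-0.14) did not pass.

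Whether the RV change differed from the LV change was tested directly for the 59 channel genes tested in both ventricles. None passed with limma, against 0.0374% of the 13364 genes tested, 0.0224% higher and 0.015% lower in the RV change. At an unadjusted p under 0.05 there were 10 of the 59, 8 lower and 2 higher in the RV change, against 7.36% of all genes. DESeq2 on the recovered reads called 1 of the 59, Kcnd2, and 35 of all 13364 genes, and edgeR called none of the 59 and 4 of all genes. Kcnd2 had a log2 fold change of -1.56 in the RV and -0.06 in the LV, where its values were 120, 91.8, 81.2, 138 and 102 normalized counts in Sham and 84.6 to 122 in nPAB. The difference was -1.50 ± 0.33 (adjusted p = 0.105). It passed with DESeq2 (adjusted p = 0.0156) and without nPAB mouse 8 (0.0465), within a range of 0.0156 to 0.309 over its alternatives.

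Kcnh2 changed by -0.67 in the RV and -0.04 in the LV, a difference of -0.63 ± 0.17 (adjusted p = 0.268), and passed only without nPAB mice 6 and 7 (0.0157, range 0.0157 to 0.685), where 80 of all genes passed. Cacna1g was at -1.24 in the RV and 0.20 in the LV, where it measured 142, 153, 297, 321 and 335 normalized counts in Sham and 136 to 563 in nPAB. That difference was -1.43 ± 0.49, and it passed only in the fit paired by mouse without nPAB mice 6 and 7 (0.0425, range 0.0425 to 0.785), where 48 of all genes passed. For Cacnb2 it was -0.63 ± 0.23 and for Kcne4 1.44 ± 0.63, neither of which passed in any alternative. The 21 channel genes called in the RV that were tested in the LV and did not pass there are therefore not shown to have changed differently there. Kcnab3, also called in the RV, was not tested in the LV.

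The 2 ventricles of Sham mice were set side by side in RPM, reads scaled to a common library depth, with no test, because each ventricle has a table with its own normalization. In all 5 Sham mice 10 of the 59 genes were higher in the RV, against 7.45% of all 13364 genes, and 1 was lower, Kcnip2, against 4.05%. Kcnd2 was at 24.7 RPM in RV Sham and 12.4 in LV Sham, and Scn10a at 4.83 and 1.55. Scn7a was at 74.8 and 50.6, Cacna1g at 44.2 and 28.9, Cacna1d at 11.1 and 7.09, and Kcnj12 at 13.5 and 8.95. The other 4 were Scn3a, Cacna2d1, Cacnb2 and Cacnb3. Kcnip2 was at 70.0 in the RV and 84.9 in the LV. In nPAB mice Kcnd2 was at 8.50 in the RV and 11.2 in the LV, and higher in the RV of 1 of 6 mice, and Cacna1g was at 18.9 and 33.1, likewise higher in 1 of 6. Without nPAB mice 6 and 7 these counts were 1 of 4 for Kcnd2 and 0 of 4 for Cacna1g. The genes were picked for their side in Sham, and the RV Sham libraries also enter the test of banding, so these values only describe.

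**Figure D4:**
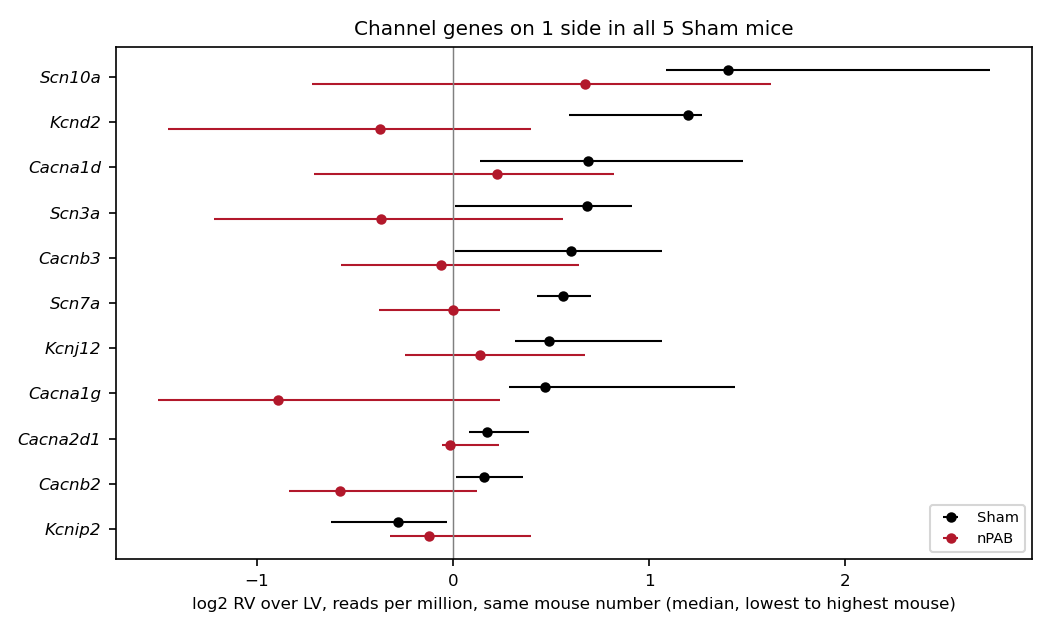
Log2 ratio of RV to LV RPM (depth-scaled reads) for the 11 channel genes on 1 side in all 5 Sham mice, paired by mouse number. Points are medians and lines run from the lowest to the highest mouse, black for Sham and red for nPAB (6 mice, of which mice 6 and 7 had libraries of different sex). Kcnd2 had a median of 1.20 in Sham and -0.37 in nPAB.

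Per exon length, the levels of the channel genes in RV Sham covered a wide range. Kcne1 was highest at 168 ± 25.2 RPKM, the RPM divided by the exon length in kilobases (SD, n = 5), followed by Kcng2 at 46.8 ± 1.86. Kcnj5 (27.6 ± 3.40) and Cacna2d1 (25.8 ± 1.76) came next and did not differ beyond their spread, and neither did Kcnj2 (22.8 ± 2.12) and Kcnip2 (20.1 ± 5.92). In RV nPAB Kcnj5 stood at 11.2 and went from position 3 to 8 of the 64, and Kcnj2 at 10.6 and from 5 to 10. Kcnk3 stood at 21.4 after 15.3 in Sham and went from 9 to 4. Kcnd2 went from 4.79 ± 0.598 and position 18 to 1.65 and position 31.

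**Figure D5:**
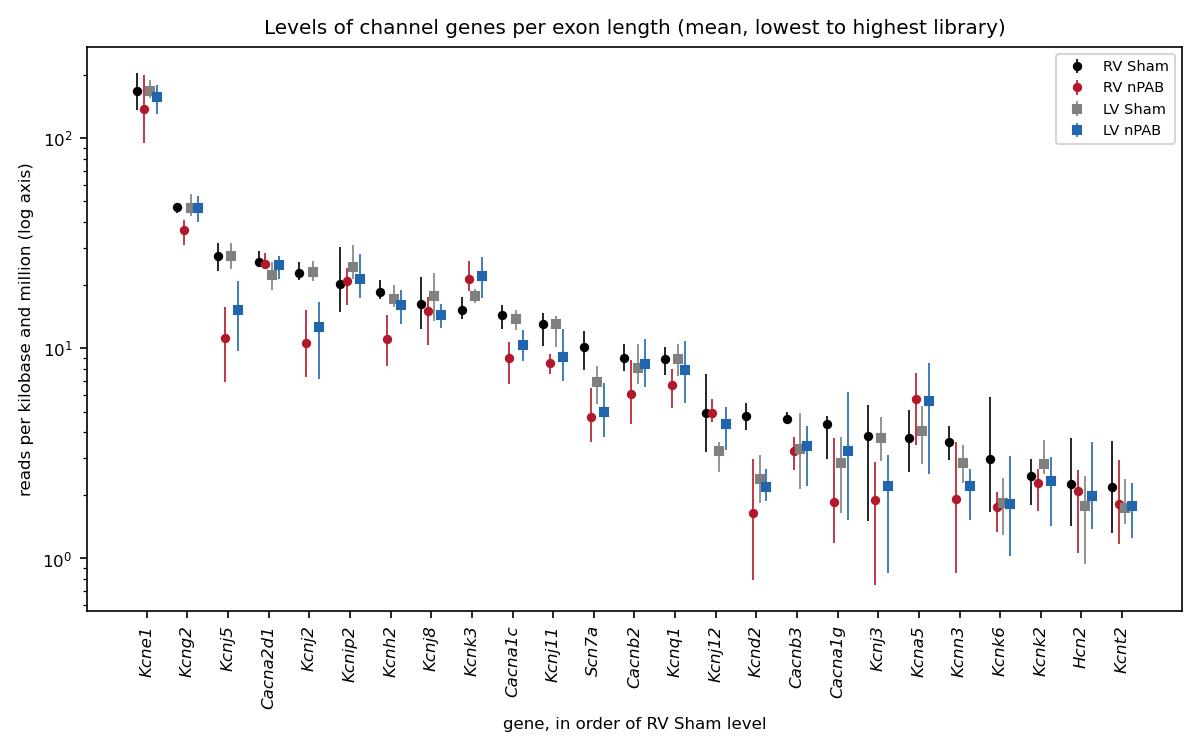
Level per exon length, on a log axis, of channel genes named in the text, in the order of their RV Sham level, as the mean of each group with a line from its lowest to its highest library. Kcne1 lies at 168 in RV Sham, and Kcnj5 and Kcnj2 lie at 11.2 and 10.6 in RV nPAB, below 27.6 and 22.8 in RV Sham.

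Proteins that bind or regulate these channels, 43 genes in a list of partners, changed in both directions. Of the 34 tested in the RV, 12 fell and 6 rose with a median of -0.16, and of the 33 tested in the LV, 6 fell and 2 rose with a median of -0.15. The shares of all genes tested were 10.8% lower and 11.1% higher in the RV, and 4.55% lower and 4.76% higher in the LV. Abcc9 and Abcc8, the sulfonylurea receptors that complete the ATP-sensitive channel with Kcnj11 or Kcnj8, fell in both ventricles. Abcc9 went from 11235 ± 839 to 6361 ± 1175 normalized counts in the RV (-0.84 ± 0.11, adjusted p = 2.7e-05) and by -0.53 in the LV. Gja1, the main gap junction protein of the ventricle, went from 7542 ± 439 to 4238 ± 707 in the RV (-0.85 ± 0.10) and from 6879 ± 336 to 3904 ± 672 in the LV (-0.83 ± 0.10), with no overlap in either. Fgf13, which binds sodium channels, fell in the RV (-0.86 ± 0.15, adjusted p = 7.61e-04), as did Nedd4l, a ubiquitin ligase that removes channels from the membrane (-0.65), and Rrad, which inhibits L-type channels (-0.35). The kinase gene Camk2d rose in the RV by 0.28 on the log2 scale, as did Jph2, which holds calcium channels near the calcium store, by 0.42.

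Of 19 transcription factors of chamber identity and conduction tested in the RV, 8 fell and none rose, with a median of -0.39, and in the LV 1 of 19 fell. Over all genes tested, 10.8% fell and 11.1% rose in the RV, and 4.55% fell in the LV. The Iroquois factor Irx3, known from the fast conduction of the Purkinje system, went from 147 ± 9.04 to 74.8 ± 20.1 normalized counts in the RV (adjusted p = 8.27e-04). Irx2 (-1.63) and Irx4 (-0.47) of the same family fell as well, and so did Hey2, a factor of ventricular compact muscle (-1.40 ± 0.21, adjusted p = 1.77e-04), and Etv1, a factor of fast-conducting muscle (-0.73). Mef2a and Nr2f1 fell in the RV, and Mef2c in both ventricles, by 0.41 in the RV and 0.48 in the LV on the log2 scale. The relation of these factors to the channel genes was not tested.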

How the data were processed

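The values are DESeq2 normalized counts, a signal that the authors made by dividing gene counts by size factors and deposited as 1 table for each ventricle with 11 libraries in it. Per the labels' protocols, RNA came from a Qiagen RNeasy Plus Mini kit and libraries from a Revelo RNA-Seq High Sensitivity kit. Cutadapt, featureCounts, DESeq2 and mm10 stand in the submitters' processing notes, with versions, aligner and strand setting not given in the sources used here. In each library every value (100%) was a whole multiple of what 1 read is worth, to within 0.001, so reads and depth could be recovered for the alternatives.

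Banding was tested with limma 3.58.1 in R 4.3.3 (trend, robust) on log2(value + 1), for genes whose mean reached 10. P-values are two-sided and were adjusted by Benjamini-Hochberg over the table, and genes under 0.05 passed. On this scale the change of low genes is understated. The difference between ventricles was an interaction over all 22 libraries without pairing, in which a fixed scale factor of either table cancels. Genes came from GENCODE M21 (mm10), and levels per length used the summed exons of a gene. The code was tested on simulated data.

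Channel genes and gene lists were chosen with earlier results of these data known. A few genes are not reported here. Named are the other channel genes that passed, set cardiac channels that did not, and the other members of small families. Alternatives varied pseudocount, filter, scaling, the limma options, sex, the pairing, the tool (edgeR 4.0.16 or DESeq2 1.42.0) and the mice. Same-numbered RV and LV libraries are from 1 mouse by the titles. Their deviations from the group means, over 12899 genes, had correlations of 0.132 to 0.383 in the 9 pairs of 1 sex, 0.172 for nPAB mouse 6 and 0.0548 for nPAB mouse 7. In those 9 pairs the RV library correlated best, within its group, with the LV library of its own number. For nPAB mice 6 and 7 it did not. Litters are not stated in the labels.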

Additional observations from a re-analysis of the deposited data

Results flagged for a closer look

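A single library stood apart from the rest of its group in 4 of the 66 groups examined, which were the 2 groups of each channel gene and subunit ratio that passed. Chance flags about 1 in 20 groups. Scn3b in RV nPAB was 82.3 normalized counts in mouse 6 against at most 33.7 in the other 5, and Kcne4 in RV nPAB was 176 in the same mouse against at most 87.5. That mouse also had the highest atrial marker sum of the RV, and without it Kcne4 still passed and Scn3b did not. Cacna1g in RV Sham was 258 in mouse 9 against at least 405 in the other 4. Kcnn2 in RV Sham was 114 in mouse 11 against at most 79.7 in the others, and its fall did not pass without that mouse.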

How the results depend on the processing

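The number of channel genes called in the RV, 27, was 20 to 27 without any 1 mouse, where 17.6% to 22% of all genes passed in place of 22%. It stayed within 1.5 times in 21 of 22 alternatives. It was 16 without nPAB mice 6, 8 and 11, where the count over all genes was 1760 in place of 2999. Of the 27, 15 passed in every alternative that tested them, and none of the 27 changed sign. In the LV the count of 5 was 1 to 7 without any 1 mouse, where 6.21% to 9.53% of all genes passed in place of 9.31%. It was 2 without a filter on low values (3.44% of all genes) and 1 with limma without its trend and robust options (5.46%). Without nPAB mice 6 and 7 it was 2, where the count over all genes was 668 in place of 1260. Kcnj5 passed in all 21 LV alternatives, the other 4 genes did not, and none of the 5 changed sign. For the difference between ventricles the count of 0 was 0 to 1 without any 1 mouse, and it was 1 with DESeq2, 1 without nPAB mice 6 and 7 and 1 with the replicate block without those mice. With the replicate block over all mice, paired by the number in the titles, it was 0. The Kcnip2 to Kcnd2 difference in the RV was 1.60 to 1.90 without any 1 mouse and 1.57 without nPAB mice 6 and 7, where fewer libraries raise the smallest p that can be reached. For Kcnj8 to Kcnj11 in the RV the adjusted p ran from 0.0286 to 0.471 when 1 mouse was left out. Where no construction shows it, the cause was not tested. Genes of few reads, such as Scn10a, Hcn4, Kcnab1 and Kcnab3, are the least precise here.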

Other observations

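Of the 138 channel genes, 74 had a mean under 10 normalized counts in both ventricles and were not tested, 11 of them with a mean of 0 in both and 14 with a mean of at least 5 in either. Among them, Kcnj4, an inward rectifier of the Kcnj2 group, averaged 6.97 in the RV and 2.87 in the LV, and Cacna1s, the L-type pore of skeletal muscle, 4.52 and 5.72. These 2 genes were picked after their values were seen. Scn8a averaged 4.06 and 3.09, and Hcn3 1.56 and 1.99. Exons of 24 of the 64 described genes overlap an exon on the opposite strand, and in 5 of these the other gene averaged at least 10 normalized counts in either table, Kcng2, Kcnh7, Kcnk3 and Kcnq1 among them.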
